A study of Homo sapiens with 4 samples.

Results

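HLF, its relatives TEF, DBP and NFIL3, and the clock genes PER1, PER2, PER3, NR1D1, NR1D2 and BHLHE40 were followed across 4 single-colour Agilent arrays of PC3 cells, a human prostate cancer cell line. They are 10 of 14556 genes tested, and 13 of 34127 probes on the array stand for them. HLF was chosen by its log2 fold change on these arrays, one of the largest drops after knockdown of ALKBH3, a demethylase that repairs alkylated DNA and RNA, and the other 9 were added as its relatives or as clock genes. The difference in HLF between the shRNAs is therefore a description and carries no test here. Probes were assigned through their RefSeq transcript accession, since the spot tables hold no column of gene symbols. All 13 probes are single spots with signal well above background on all 4 arrays, so all 10 genes passed the filter on dim probes. By this assignment HLF, TEF, DBP, NFIL3, PER1, NR1D1 and BHLHE40 have 1 probe each, and PER2, PER3 and NR1D2 have 2. Probes of these genes under other accessions, if any, are not counted.

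Lentivirus delivered the shRNA, directed at ALKBH3 in knockdown cells and at GFP in control cells, and puromycin selection lasted 48 h or 96 h before RNA was taken. Each of the 4 combinations was measured once, so that knockdown and control rest on 2 arrays each, from different time points (n = 2), and precision is limited by this number. All 4 samples share the cell line, the viral infection and the selection, and the ALKBH3 shRNA is not further named in the labels. A slide carried the control and the knockdown array of 1 time point, so that knockdown is compared within a slide while time point and slide cannot be told apart. Pairs of values are given as control, then knockdown. Values below are log2 signals relative to the 75th percentile of the array, on which log2 differences of 1 stand for a 2-fold change. Levels of different probes are not compared with each other.

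The PAR bZIP proteins HLF, TEF and DBP are transcription factors that bind as dimers to a short DNA element, the D-box, and activate genes there. NFIL3 binds the same element and represses it. In the circadian clock, CLOCK and BMAL1 activate genes through another element, the E-box, among them the PER genes, NR1D1, NR1D2, DBP and BHLHE40. PER proteins feed back on CLOCK and BMAL1, the nuclear receptors NR1D1 and NR1D2 (REV-ERB) repress BMAL1 and NFIL3, and BHLHE40 (DEC1) competes at E-boxes, so that D-box activators rise and fall with the cycle in many tissues. Cells in culture lose a common phase unless they are synchronised, and arrays of such cells measure the average over phases.

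The promoters of these genes, from 250 bases before to 50 bases after a RefSeq start site (GRCh38.p14), were searched on both strands for the D-box (TTACGTAA or TTATGTAA), the E-box (CACGTG), the CRE that cAMP-responsive factors bind (TGACGTCA) and the RORE bound by the REV-ERB receptors. A D-box was found in 3 of 15 promoters, those of PER2, PER3 and NR1D2, and in 1.01% of all 35116 promoters. An E-box was found in 5 of the 15, in the 4 genes TEF, PER1, NR1D2 and BHLHE40, against 7.26% of all promoters. In the searched range none was found for PER2, PER3, NR1D1 or DBP. A CRE was found in 1, the promoter of HLF, against 1.85%. No RORE was found in the 15, while 0.379% of all promoters hold one. The D-boxes are shown because they are the element to which HLF binds, with 30 bases 5′ to 3′ on the strand of the gene and the matching letters in capitals. Distances are counted to the first matching letter, so the D-box of PER2 runs across the start site.

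PER2, chr2:238288595-238288624, minus strand, D-box 3 bases before the start site: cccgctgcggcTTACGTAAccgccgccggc

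PER3, chr1:7784103-7784132, plus strand, D-box 177 bases before the start site: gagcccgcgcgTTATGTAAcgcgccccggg

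NR1D2, chr3:23945916-23945945, plus strand, D-box 194 bases before a start site, read as its reverse complement: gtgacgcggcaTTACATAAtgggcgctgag

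An E-box of TEF, that of PER1 and the CRE of HLF are shown in the same way. The E-box at the other TEF start site and those of NR1D2 and BHLHE40 are not shown. TEF is included for its difference between the time points and HLF for its difference between the shRNAs, and the capitals again mark the matching letters. Counted in the same way, the CRE of HLF reaches the start site.

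TEF, chr22:41367248-41367277, plus strand, E-box 195 bases before a start site: gcgcgacagctcCACGTGctgcagctggcg

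PER1, chr17:8152560-8152589, minus strand, E-box 173 bases before the start site: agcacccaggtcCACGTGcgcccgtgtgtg

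HLF, chr17:55264942-55264971, plus strand, CRE 7 bases before a start site: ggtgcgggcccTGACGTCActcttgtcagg

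A match of letters is a description of the sequence and was not tested as a binding site in these cells.

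ALKBH3 itself checks the labels. Its probe with the higher mean signal read -0.74 in control and -2.48 in knockdown cells at 48 h, and -0.89 and -2.41 at 96 h, and the second probe was 4.09-fold lower at 48 h and 4.19-fold lower at 96 h. Between 66.96% and 70.91% of probes were well above background, and the median SD over spots of the same probe was 0.085 to 0.0967 on the log2 scale. The epithelial genes KRT8, KRT18, EPCAM and CDH1 were well above background on all 4 arrays, and KLK3, of which PC3 cells have little, on 0. The log2 level of EPCAM was higher by 0.98 in knockdown cells (adjusted p in limma = 0.418, or 0.0264 with time point as a block) and that of CDH1 by 0.74 (0.887, or 0.0472 with the block), while KRT8 had 0.03 and KRT18 -0.07. At 96 h CDH1 was lower with a log2 difference of -1.33 (limma adjusted p = 0.0236) and EPCAM with -0.45 (0.0373), KRT8 had -0.20 and KRT18 0.09. The part of these markers in the values of the 10 genes was not tested. Of the markers of other cell types, PTPRC, CD3E, PECAM1 and COL1A1 were well above background on 4 arrays, VWF on 3 and COL1A2 on 0. Log2 fold changes of those tested ran from -0.59 for PECAM1 to 0.71 for COL1A1. The probes of PTPRC (scaled signals from -4.80 to -4.53), CD3E (-5.65 to -5.12) and VWF (-6.26 to -5.91) were dim. PECAM1 had -4.22 to -3.14 and COL1A1 -1.44 to -0.26. Signal well above background was thus also called for dim probes, and by itself it does not show that a gene is expressed.

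Of the 10 genes, 1 lay past the cutoffs that the study states (at least 2-fold, unadjusted p below 0.05), namely HLF, which was chosen for this difference. The same cutoffs held for 1.27% of all genes tested, 0.234% lower and 1.04% higher in knockdown cells. Each of the other 9 differed by 1.24-fold or less between the shRNAs, with log2 fold changes from -0.31 to 0.09. The arrays of an shRNA differ in time point and slide. Without a block, the intervals and p-values between the shRNAs therefore count that difference as spread. With time point as a block the interval was narrower for each of the 9, for example -0.38 to 0.03 for DBP and -0.29 to 0.12 for NR1D1.

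HLF (hepatic leukemia factor, chromosome 17) had an intensity before scaling of 1227 in control and 357.2 in knockdown cells at 48 h, and of 1031 and 201.1 at 96 h. On the scaled log2 axis these are -0.81 and -2.68 at 48 h and -1.18 and -3.57 at 96 h. Both control arrays thus lay above both ALKBH3 shRNA arrays, and within each shRNA the 96 h array was the lower one. HLF was 3.65-fold lower at 48 h and 5.25-fold lower at 96 h, and the mean log2 fold change of -2.13 was the second largest drop of all genes tested, between CRABP1 with -2.23 and MYB with -2.04, the latter named after its value was seen. The 48 h and 96 h fold changes of HLF differed by -0.52 on the log2 scale, which rests on 1 array for each shRNA and time point and was not tested. Over the 4 arrays its signal spanned 2.77 log2 units, at percentile 99.73 of the ranges of all genes tested. Most of this range is the shRNA difference for which HLF was chosen, so the percentile is no further result.

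**Figure D1:**
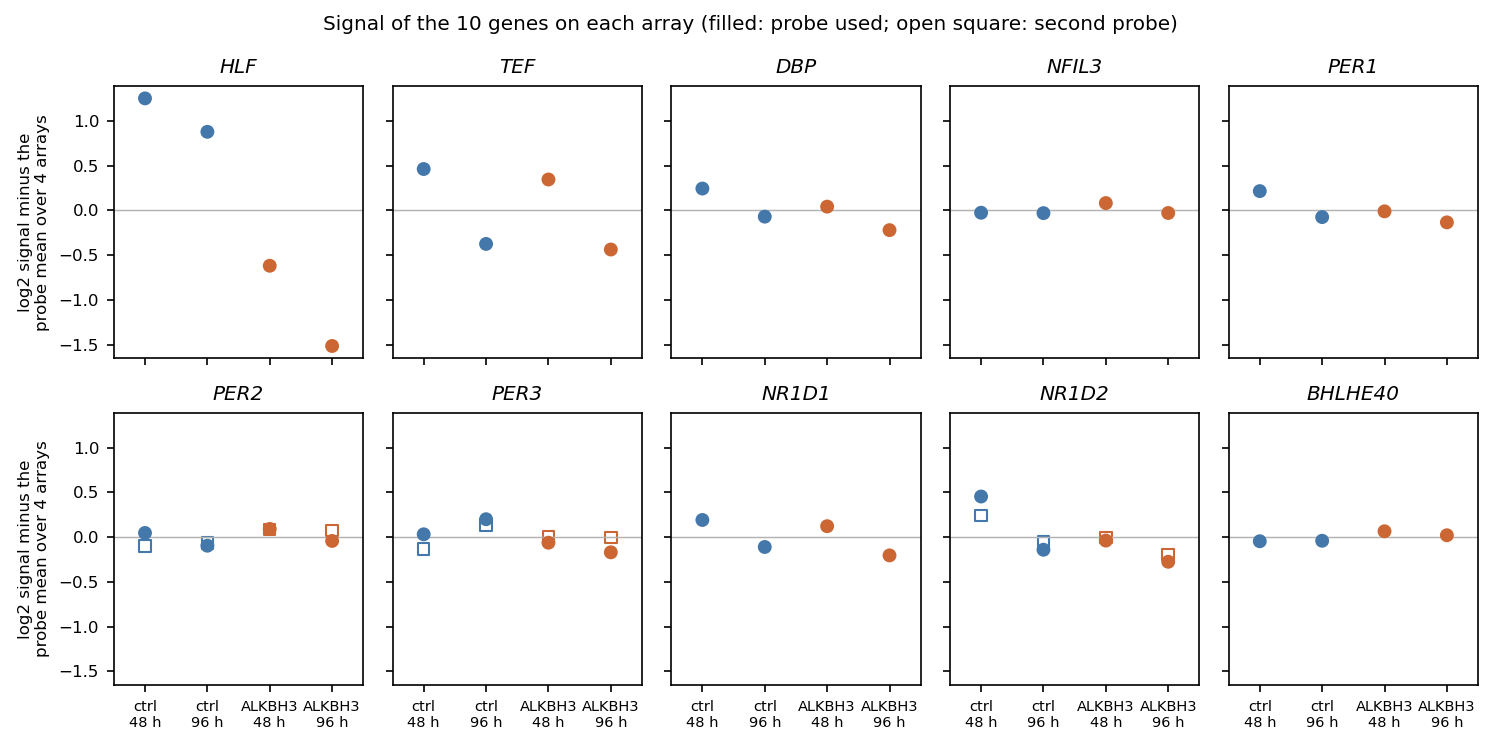
Log2 signal of each probe minus its own mean over the 4 arrays (y axis, the same in all panels) for the 10 genes, with control shRNA arrays in blue and ALKBH3 shRNA arrays in orange. HLF separates by shRNA and spans 2.77 log2 units, TEF separates by time point and spans 0.90, and NFIL3 and BHLHE40 span 0.11 each.

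The other 2 PAR bZIP activators, TEF and DBP, did not pass between the shRNAs. TEF (thyrotroph embryonic factor) read -2.86 in control and -2.98 in knockdown cells at 48 h, and -3.69 and -3.76 at 96 h. The shRNA groups overlapped, and the log2 fold change was -0.09 (95% interval -1.15 to 0.97, limma adjusted p = 0.990), or -0.30 to 0.12 for the interval with time point as a replicate block. DBP, the D-box binding protein first found at the albumin promoter, read -1.39 and -1.59 at 48 h and -1.70 and -1.85 at 96 h. ALKBH3 shRNA was the lower of each pair, with log2 fold changes of -0.20 and -0.15, and the log2 fold change of -0.18 did not pass (95% interval -0.64 to 0.29, limma adjusted p = 0.904). NFIL3, the repressor of the same element, read 0.18 and 0.29 at 48 h and 0.18 and 0.18 at 96 h, with a log2 fold change of 0.05 (95% interval -0.25 to 0.36, limma adjusted p = 0.968). A 2-fold difference in either direction lies outside the intervals of DBP and NFIL3, while the interval of TEF without the block takes in a 2-fold drop and not a 2-fold rise.

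PER1, PER2 and PER3 encode the period proteins, the repressors of the negative limb of the clock. PER1 read -1.25 in control and -1.48 in knockdown cells at 48 h, and -1.54 and -1.60 at 96 h, a log2 fold change of -0.14 (95% interval -0.55 to 0.26, limma adjusted p = 0.911). PER2 read -0.86 and -0.82 at 48 h and -1.01 and -0.95 at 96 h, a log2 fold change of 0.05 (95% interval -0.29 to 0.39, limma adjusted p = 0.979). Its second, dimmer probe had 0.16. The shRNA arrays of each time point differed by at most 0.05 on the probe used, and by 0.18 and 0.14 on the second. The genes with a D-box, PER2, PER3 and NR1D2, had log2 fold changes of 0.05, -0.23 and -0.31 on the probes used. A part of HLF in these values was not tested.

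PER3 read -3.72 in control and -3.82 in knockdown cells at 48 h, and -3.56 and -3.93 at 96 h. Both ALKBH3 shRNA arrays lay below both control arrays, and the log2 fold change was -0.23 (95% interval -0.57 to 0.11, limma adjusted p = 0.746). The second PER3 probe had 0.13 at 48 h and -0.14 at 96 h, with a mean of -0.0034, so the probes of PER3 did not share this order. With intensities of 81.33 to 199 the PER3 probes were dim.

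NR1D1 and NR1D2 encode the REV-ERB receptors. NR1D1 read -2.89 in control and -2.96 in knockdown cells at 48 h, and -3.19 and -3.28 at 96 h, a log2 fold change of -0.08 (95% interval -0.57 to 0.41, limma adjusted p = 0.972). NR1D2 read -0.31 and -0.81 at 48 h and -0.91 and -1.04 at 96 h. Its log2 fold change was -0.31 (95% interval -0.95 to 0.33, limma adjusted p = 0.853), and it came to -0.49 at 48 h and -0.13 at 96 h. Without the 48 h control array it was -0.016, and without the 96 h control array -0.61. The second NR1D2 probe was lower by the same order, with -0.25 at 48 h and -0.15 at 96 h. The replicate block by time point gave NR1D2 an interval of -0.62 to -0.0043 and an adjusted p of 0.195 in limma, which did not pass either.

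BHLHE40 read 0.95 in control and 1.06 in knockdown cells at 48 h, and 0.95 and 1.01 at 96 h. Both ALKBH3 shRNA arrays lay above both control arrays by a margin of 0.06, which is below the median SD of replicate spots, and the log2 fold change was 0.09 (95% interval -0.21 to 0.38, limma adjusted p = 0.934). In all, the shRNA groups did not overlap for 3 of the 10 genes, HLF and PER3 with lower and BHLHE40 with higher signal, against 36.4% of all genes tested (19.1% lower, 17.4% higher). Of the 9 genes besides HLF, 0 had an unadjusted p below 0.05 in limma, against 8.33% of all genes (1213), and 0 of all genes passed the adjusted p. With the block, 4.46% of all genes passed the adjusted p, 1.5% with lower signal, and 0 of these 9.

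**Figure D2:**
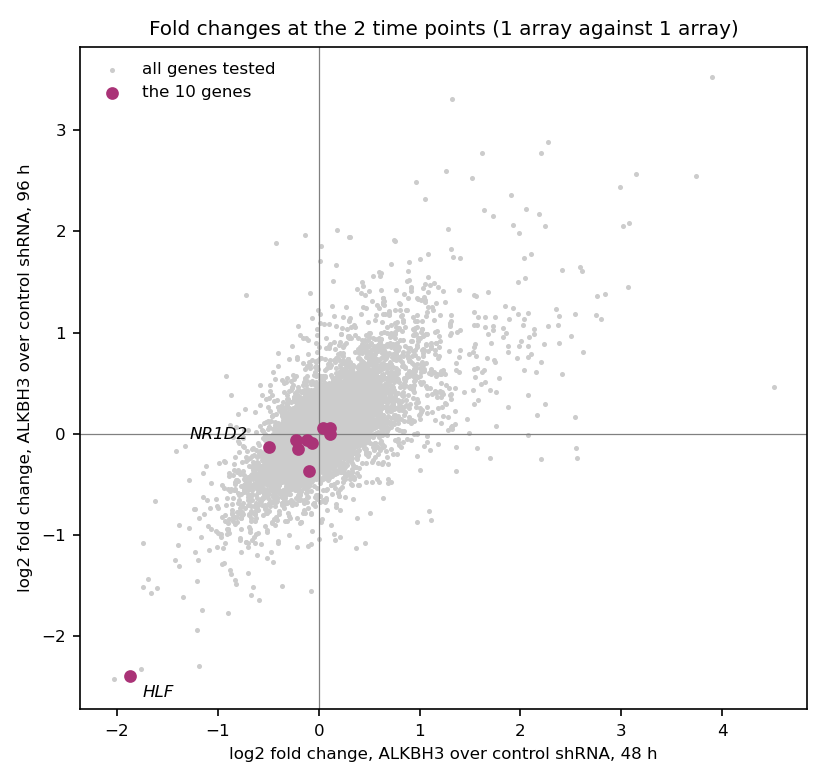
Log2 fold change of ALKBH3 over control shRNA at 48 h (x axis) and at 96 h (y axis) for 14556 genes (grey) and the 10 genes (purple), 1 array against 1 array at each time point. HLF lies at -1.87 and -2.39, and NR1D2 is the next in size at 48 h with -0.49.

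The time points were compared over the same 4 arrays, with shRNA as a term in the fit, which asks how the genes differ between 48 h and 96 h of selection. This contrast was not used to choose HLF. Signal was lower at 96 h for 9 of the 10 genes, all but PER3, and for 7426 of all 14556 genes tested. The median log2 difference of the 10 was -0.25, while the median of all genes was -0.006. Both 96 h arrays lay below both 48 h arrays for 7 of the 10 and above them for 0, against 26% and 26.6% of all genes tested, or 52.6% in either direction. TEF, DBP, NFIL3, PER1, PER2, NR1D1 and NR1D2 are the 7. The direction of NFIL3 and of the small difference in BHLHE40 was the other way after normexp background correction and in the authors' own normalized table, and NFIL3 is then no member of this group. PER3 was lower at 96 h in both, with -0.07 and -0.08, so the count of 9 and its exception depend on the processing. The nearest arrays of NFIL3 read 0.1765 at 96 h and 0.1794 at 48 h, and those of PER1 -1.54 and -1.48. These gaps are below the median SD of replicate spots. On the second PER2 probe the time points overlapped.

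TEF had the largest difference. It rests on 1 single-spot probe, which at 96 h lay within the intensities of the PER3 probes called dim above. TEF intensity before scaling was 296.5 at 48 h and 180.7 at 96 h with control shRNA, and 290.7 and 177.1 with ALKBH3 shRNA. After scaling the log2 differences were -0.84 and -0.78. The 2 shRNAs thus gave nearly the same difference. The mean of -0.81 (95% interval -1.02 to -0.60, limma adjusted p = 0.0236), a 1.75-fold drop, passed the adjusted p and not the 2-fold cutoff. The fit left 1 residual degree of freedom for each gene, beside 3.325 prior degrees of freedom estimated from all genes. Intervals and p-values between the time points thus rest largely on variance borrowed from other genes. In this fit 1 of the 10 genes, TEF, passed the adjusted p, against 12.8% of all genes. HLF, DBP and NR1D2 passed as well after normexp background correction, where 24.8% of all genes did, after normexp with quantile normalization (28.1%) and in the authors' table (24.1%). Without the shRNA term the adjusted p of TEF was 0.131, and with no filter on dim probes 0.124, and 0 of all genes passed in either of these fits.

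HLF was lower at 96 h, with log2 differences of -0.37 in control and -0.90 in knockdown cells. The mean of -0.63 (95% interval -1.03 to -0.24) had a limma adjusted p of 0.0619 and did not pass, though it did with the filter of signal on all 4 arrays (0.0408) and with the authors' values (0.0065). DBP had -0.31 and -0.26 in control and knockdown cells, with a mean of -0.29 (95% interval -0.49 to -0.08, limma adjusted p = 0.0785, 0.00065 after normexp and 0.0099 in the authors' table). The 3 PAR bZIP activators thus had lower signal at 96 h with either shRNA, and NFIL3 had a difference of -0.06 (95% interval -0.27 to 0.16, limma adjusted p = 0.639).

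Among the clock repressors, NR1D2 had log2 differences of -0.59 in control and -0.24 in knockdown cells, with a mean of -0.42 (95% interval -0.72 to -0.11, limma adjusted p = 0.0839, 2.1e-05 after normexp and 0.0039 in the authors' table). Its second probe had -0.29 and -0.19. NR1D1 had -0.30 and -0.33, with a mean of -0.31 (95% interval -0.52 to -0.11, limma adjusted p = 0.0669). The intervals of HLF, TEF, DBP, NR1D1 and NR1D2 lay below 0, each with an unadjusted p under 0.05, as had 35% of all genes in either direction.

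PER1 had a difference of -0.21 (95% interval -0.44 to 0.02, limma adjusted p = 0.173) and PER2 of -0.14 (95% interval -0.34 to 0.07, limma adjusted p = 0.265), while the second PER2 probe had 0.01. PER3 differed by 0.03 (95% interval -0.24 to 0.30, limma adjusted p = 0.854) and BHLHE40 by -0.02 (95% interval -0.23 to 0.19, limma adjusted p = 0.879). At the 2-fold cutoff with an unadjusted p below 0.05, 0 of the 10 genes were lower or higher at 96 h, against 1.06% and 0.185% of all genes, or 1.25% together. Since the 48 h and the 96 h arrays lay on different slides, a difference between slides cannot be told apart from these values.

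**Figure D3:**
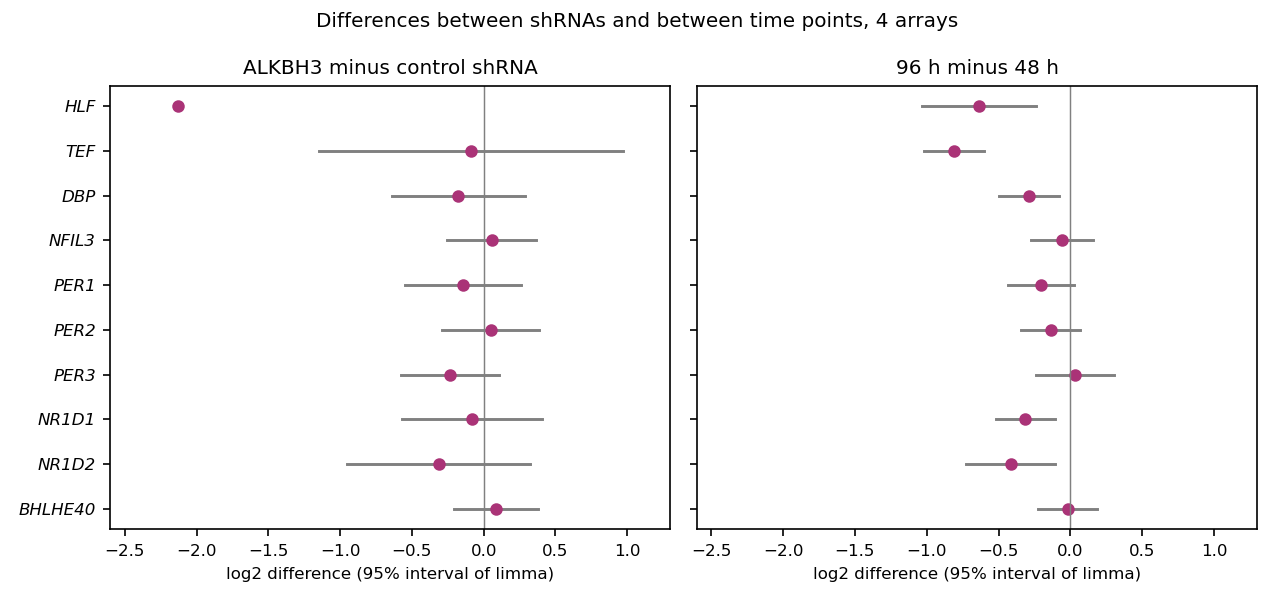
Log2 differences of the 10 genes between ALKBH3 and control shRNA (left) and between 96 h and 48 h (right) over 4 arrays, with the 95% interval from limma as bars and no interval for HLF on the left, for which it was chosen. On the right the intervals of HLF, TEF, DBP, NR1D1 and NR1D2 lie below 0, and on the left the intervals of the 9 other genes include 0.

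The other genes of the clock were taken as a list of 19, of which 16 were tested, since the others, USP2 and NOCT among them, were not well above background on both arrays of either shRNA. It holds the activators CLOCK, BMAL1, BMAL2 and NPAS2, the repressors CRY1, CRY2, CIART and BHLHE41, and, among others, kinases and ubiquitin ligase parts that act on PER and CRY. Between the shRNAs 0 of 16 passed the cutoffs, and the median log2 fold change was -0.03, against -0.003 for all genes. Of the 4 with the highest mean signal, FBXW11, a ubiquitin ligase part, had -0.27, TIMELESS, a replication fork protein named after a fly clock gene, had 0.12, BHLHE41 (DEC2), the close relative of BHLHE40, had -0.45, and the PER kinase CSNK1D had 0.09.

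BHLHE41 read 2.32 in control and 1.92 in knockdown cells at 48 h, and 2.07 and 1.56 at 96 h. Both ALKBH3 shRNA arrays lay below both control arrays, and its adjusted p in limma was 0.632. The shRNA groups did not overlap for 5 of the 16 with lower and 2 with higher signal, against 19.1% and 17.4% of all genes. Between the time points 0 of the 16 passed the 2-fold cutoff and 2 passed the adjusted p, both higher at 96 h, a share near the 12.8% of all genes. They were TIMELESS, with 0.58 (limma adjusted p = 0.0276), and CLOCK, with 0.39 (limma adjusted p = 0.0470), the latter singled out after its values were seen. The median time difference of the 16 was 0.02, with 9 higher and 7 lower, where the 10 genes had 1 higher and 9 lower.

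Possible targets of PAR bZIP proteins, from work in liver, brain, pituitary or blood cells, were taken as a list of 10, of which 5 were tested. Whether these proteins act on the listed genes in PC3 cells was not tested. ALB, CYP7A1, F9 and LMO2 were not well above background on both arrays of either shRNA, and POR had no probe with a matched accession. Between the shRNAs 0 of 5 passed the cutoffs. PDXK (pyridoxal kinase) had a log2 fold change of 0.04, ALAS1, which makes the first haem precursor, of 0.06, TSHB (thyrotropin beta) of 0.05 and the transcription factor SNAI2 of 0.50 (limma adjusted p = 0.795). The median of the 5 was 0.05.

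ALAS1 was lower at 96 h, with a log2 difference of -0.52 (limma adjusted p = 0.0313), and TSHB was higher by 0.39 (limma adjusted p = 0.0465). Thus 2 of the 5 passed the adjusted p, against 12.8% of all genes. The probe of TSHB was dim, with scaled signals from -3.79 to -3.35. Of the C/EBP factors, bZIP relatives that bind related sites, and DDIT3, 5 of 6 were tested, CEBPE being too dim, and 0 of 5 passed the cutoffs between the shRNAs. CEBPB had a log2 fold change of 0.24, CEBPG of 0.24, CEBPD of -0.10 and DDIT3 of -0.04. Between the time points DDIT3, which encodes the stress factor CHOP, was lower at 96 h, with -0.61 (limma adjusted p = 0.0263), the 1 of 5 to pass against 12.8% of all genes, and the median of the 5 was -0.18.

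**Figure D4:**
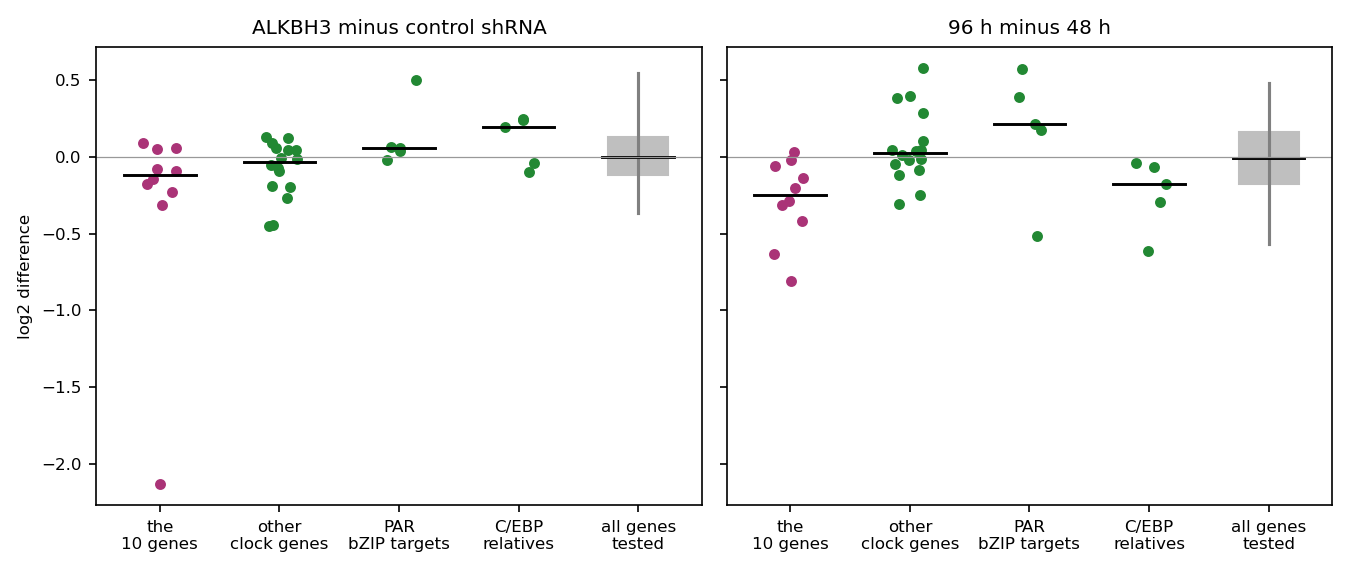
Log2 differences between ALKBH3 and control shRNA (left) and between 96 h and 48 h (right) for each tested gene of 4 groups, with the median as a black line, and for all genes tested the median, quartiles (box) and the range from the 5th to the 95th percentile (line). Medians on the right are -0.25 for the 10 genes and 0.02 for 16 other clock genes. They are 0.21 for 5 genes listed as PAR bZIP targets and -0.18 for 5 C/EBP relatives.

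The genes whose pattern was nearest to HLF were taken from 14021 genes with signal well above background on all 4 arrays, by the Euclidean distance between the 4 log2 signals after each gene was centred on its mean. CRABP1, a retinoic acid binding protein, was the nearest, at a distance of 0.13, followed by the keratin KRT37 at 0.65, the receptor tyrosine kinase ALK at 0.66, FAM20A at 0.69 and the amino acid transporter family member SLC38A11 at 0.81. CRABP1 read 4.73 in control and 2.69 in knockdown cells at 48 h, and 4.25 and 1.82 at 96 h, so that its differences were -2.03 and -2.42 where HLF had -1.87 and -2.39. FAM20A differed from HLF mainly at 48 h, with -1.18 at 48 h and -2.29 at 96 h. The probes of ALK (scaled signals from -5.61 to -3.54) and SLC38A11 (-5.42 to -3.49) were dim. With 4 arrays of which 2 carry each shRNA, the measure picks genes that, like HLF, drop with ALKBH3 shRNA, and it carries no test. None of the 9 other genes studied here is among the 5.

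**Figure D5:**
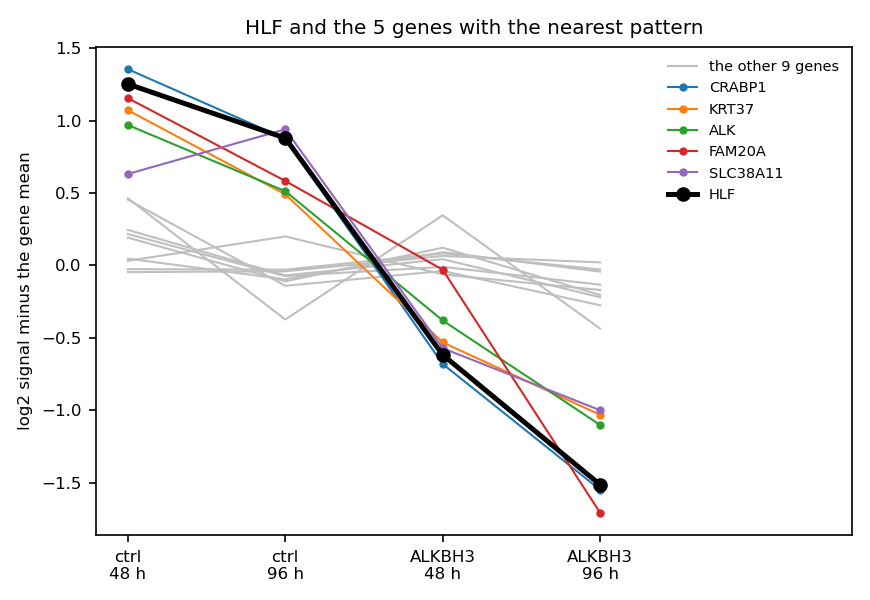
Log2 signal minus the mean of the gene over 4 arrays, for HLF (black), the 5 genes with the smallest distance to it (colours) and the other 9 genes (grey); lines join the arrays of a gene and are no time course. CRABP1, at a distance of 0.13, runs along HLF, and the 9 grey lines stay within 0.90 log2 units each.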

How the data were processed

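RNA of PC3 cells with ALKBH3 or control shRNA at 48 h and 96 h was measured on 4 Cy3 arrays. Spot intensities were deposited after background subtraction and detrending within each array by Agilent Feature Extraction (10.7.3.1 in the file headers). A deposited table of log2 values, normalized by the authors with limma by a method not given in the sources used here, served as an alternative. The number of arrays limits the precision.

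Log2 intensities were set relative to the 75th percentile of all spots that are not controls. Spots marked as not uniform or as outliers (180 to 379 per array) were dropped and spots of the same probe averaged. RefSeq accessions (GRCh38.p14) named 24910 of 34127 probes. A probe entered the tests if at least 0.5 of its spots were well above background on the 2 arrays of an shRNA, and the brightest such probe stood for the gene. Knockdown was compared in limma 3.58.1 (R 4.3.3) by lmFit and eBayes without covariates, and time with shRNA as a term. Calls needed a change of at least 2-fold with an unadjusted p below 0.05, and adjustment was by Benjamini-Hochberg over all genes.

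The labels give the time point, by which the arrays are paired, and deviations from the shRNA means correlated by 0.703 between the shRNAs over 14556 genes. Whether samples were separate cultures is not stated, so p-values measure only the spread between these arrays. In the knockdown fit without a block this spread includes the difference between time points and slides. The 10 genes and all lists were chosen with earlier results of these data known. Named genes are the 10, ALKBH3, list genes past the cutoffs, the 4 brightest of each list, and the 5 nearest to HLF; cell type markers are named as a check. The steps were tested on simulated data. The alternatives tried were other background correction (normexp, offset 50) and scaling, the authors' table, other filters, probe rules, cutoffs and tests, a replicate block, and each array left out.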

Additional observations from a re-analysis of the deposited data

Results flagged for a closer look

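For 2 of the 10 genes the difference between 96 h and 48 h had opposite signs with the 2 shRNAs. The PER3 signal differed by 0.17 on the log2 scale with control shRNA and by -0.11 with ALKBH3 shRNA. The BHLHE40 signal differed by 0.0054 with control shRNA and by -0.04 with ALKBH3 shRNA. Each value compares 1 array with 1 array, so the difference between the shRNAs was not tested.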

How the results depend on the processing

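Between the shRNAs, HLF was the 1 gene of the 10 past the cutoffs under all alternatives tried except the adjusted p without a block, where the count was 0. Pairing by time point (the replicate block) gave 1, also at the adjusted p, a combination chosen after seeing the data, and each array left out gave 1. HLF was chosen for this difference, so these counts of HLF support nothing and say nothing of its stability. The count of higher genes was 0 in every setting. With 1 array left out, HLF ranged from -2.58 to -1.68, and differences near 0 turned sign, with ranges of -0.508 to 0.329 for TEF, -0.288 to 0.0027 for PER1, -0.245 to 0.0814 for NR1D1, -8e-04 to 0.110 for NFIL3 and -0.0222 to 0.120 for PER2, while NR1D2 ran from -0.610 to -0.016 and DBP from -0.333 to -0.0193. Over all genes 34 were lower and 151 higher, against 15 and 45 by the methods' t-test (0 genes after Benjamini-Hochberg), 187 and 415 at a 1.5-fold cutoff, 22 and 62 after normexp and 56 and 276 with no filter. Left-out arrays gave 30 to 89 lower and 149 to 381 higher genes.

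Between the time points, 2 of the 10 genes (HLF, TEF) were lower at a 1.5-fold cutoff and 1 (TEF) at the adjusted p, against 0 at the 2-fold cutoff. Without the shRNA term, and so with no replicate block, 0 passed either, and 0 of all genes passed the adjusted p. Over the alternatives the adjusted p of TEF ran from 1.9e-08 to 0.258, of HLF from 7.1e-05 to 0.866, of DBP from 0.00065 to 0.472 and of NR1D2 from 2.1e-05 to 0.561. The difference turned sign with normexp, with normexp and quantile normalization, and with the authors' values for NFIL3 (0.112, 0.122, 0.124), PER3 (-0.0676, -0.0612, -0.0844) and BHLHE40 (0.117, 0.117, 0.120), and with median centring for BHLHE40 (0.0362). With 1 array left out only the other shRNA gives a value, untested, from -0.107 to 0.168 for PER3 and -0.0442 to 0.0054 for BHLHE40, and counts could not be fitted, as no residual degree of freedom is left. Over all genes 155 were lower and 27 higher at 96 h, against 133 and 44 with median centring, 202 and 391 with no filter, 72 and 14 after normexp, and 653 and 435 at a 1.5-fold cutoff.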
